A study of Mus musculus with 16 samples.

Results

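The genes described here are 10 markers of the cells that line blood vessels, the vascular endothelium, in lung adenocarcinomas and metastases of mice. They are Vwf, Pecam1, Tek, Tie1, Kdr, Flt1, Calcrl, Eng, Esam and Emcn, and they were taken at every probe set, a group of short probes for 1 transcript, that is annotated to 1 of these symbols alone. This gave 14 probe sets (3 for Flt1, 2 each for Calcrl and Eng, 1 for each other gene) of 22626 on the array that are not controls, and 10 of 12393 genes. The study asked which transcripts differ between metastases and the lung tumor of the same mouse. One array was hybridized per tumor for 16 tumors, which were 7 primary lung tumors, 1 from each of mice 1 to 7, and 9 metastases from mice 1 to 4. All 7 mice carried the alleles p53R172H∆g/+ and K-rasLA1/+, a mutant p53 and a latent oncogenic K-ras that recombines spontaneously in single cells. Both alleles are inherited, so the host cells of every tumor, its vessels included, carry them too, and there was no tumor of another genotype and no normal lung among the samples. The labels give mouse 6 as female and all others as male. Age was not given in the sources used here. The primary tumors and metastases had been dissected away from the neighboring tissue. Part of each went to histology, and tumor tissue was profiled without separating its cell types.

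The metastases were an inguinal tumor, a liver tumor and a subcutaneous or body wall tumor in mouse 1, a liver tumor in mouse 2, a heart tumor, a mediastinal lymph node tumor and a subcutaneous tumor in mouse 3, and a mediastinal lymph node tumor and a parietal pleura tumor in mouse 4. Values are the deposited model-based intensities on a linear scale, in arbitrary units, which can be compared between tumors for 1 probe set but not between probe sets. The median intensity of an array lay between 75.0 and 85.5, and 25% of all values were under 24.3, a level called dim below. Differences are log2 differences, metastasis minus primary tumor, after values under 1 were raised to 1. They were tested in limma with the mouse as a block, over the 13 tumors of mice 1 to 4, and the Benjamini-Hochberg adjustment ran over all 22626. The summed intensity of hepatocyte markers was high in all 3 metastases of mouse 1, also in those not labelled as liver. Of 9 markers, 9 were above the own primary tumor in its liver metastasis. The inguinal and the subcutaneous or body wall metastasis had 6 each, as did the lymph node metastasis of mouse 4. The reason was not tested. For mouse 1 the study lists a liver metastasis and 2 of the body wall, so the inguinal label has no counterpart there. For mouse 3 it lists a body wall metastasis where the label gives subcutaneous. The hepatocyte values are not explained by either source, so the main results are also given without mouse 1. Since the 9 metastases came from 4 mice, metastases of 1 mouse are not independent animals.

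Endothelial cells carry receptors for the factors that start and steady vessels. Kdr and Flt1 bind vascular endothelial growth factors, Tek binds the angiopoietins, and Tie1 is the partner receptor of Tek. Vwf is a secreted glycoprotein that endothelial cells store in Weibel-Palade bodies and that tethers platelets, and it is known to vary along the vascular tree, being prominent in larger vessels and sparse in many capillary and sinusoidal beds.

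Vwf stood apart from the other 9 genes. It was lower in all 9 metastases than in the primary tumor of the same mouse, with a log2 difference of −4.61, whereas the median difference of the other 9 genes over the 9 metastases lay between −0.67 and 0.30. Calcrl, the receptor subunit for adrenomedullin and calcitonin gene-related peptide, was also lower in all 9 at 1 of its 2 probe sets. Tie1 was at −0.88 and lower in 8 of 9 metastases, and Pecam1 was at −0.50 and lower in 7 of 9. Kdr, Flt1, Tek, Eng, Esam and Emcn had log2 differences between −0.25 and 0.07. Because unseparated tumor tissue was measured, fewer endothelial cells in a tumor and less of a transcript in each cell cannot be told apart.

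Vwf, probe set 1435386_at, had an intensity of 201 in the primary tumor of mouse 1, 227 in mouse 2, 126 in mouse 3 and 136 in mouse 4. In the 3 mice without a profiled metastasis it was 192 (mouse 5), 268 (mouse 6) and 88.8 (mouse 7). Its intensity in the metastases of mouse 1 was 1.51 in the inguinal tumor, 5.26 in the liver and 1.04 in the subcutaneous or body wall tumor. In these 3 tumors Vwf was near the bottom of the scale. The liver metastasis of mouse 2 had 2.52. The heart, lymph node and subcutaneous metastases of mouse 3 had 22.4, 80.7 and 5.14, and those of mouse 4 had 9.95 in the lymph node and 23.1 in the pleura. Vwf was thus dim in 8 of 9 metastases and in none of the 7 primary tumors, and the highest metastasis, the lymph node of mouse 3, lay below the lowest primary tumor.

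The mean intensity of Vwf was 173 ± 49.3 (SD, n = 4) in the matched primary tumors, 183 ± 89.7 (SD, n = 3) in the others, and 16.8 ± 25.4 (SD, n = 9) in the metastases, with a median of 5.26. The log2 difference was −4.61 (SE 0.89, 95% interval −6.58 to −2.63). Its limma p was 4.08e-04 and its adjusted p 0.0716, so Vwf did not pass the adjusted threshold of 0.05 in the matched tumors, although its difference was the second lowest of 22626. The mean log2 ratio per mouse was −6.64 in mouse 1, −6.50 in mouse 2, −2.59 in mouse 3 and −3.17 in mouse 4, and an exact two-sided sign permutation over these 4 means gave p = 0.125, the smallest it can give. With all 7 primary tumors and the mouse as a random block, Vwf fell by 4.57 (SE 0.70, limma adjusted p = 0.00419). The size of the difference rests on the dim values, since with values under 24.3 raised to 24.3 it was −2.59 (limma adjusted p = 0.0326). Without mouse 1 it was −3.81 in the matched tumors (limma adjusted p = 0.376), and Vwf did not pass with all primary tumors either (limma adjusted p = 0.0786).

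**Figure D1:**
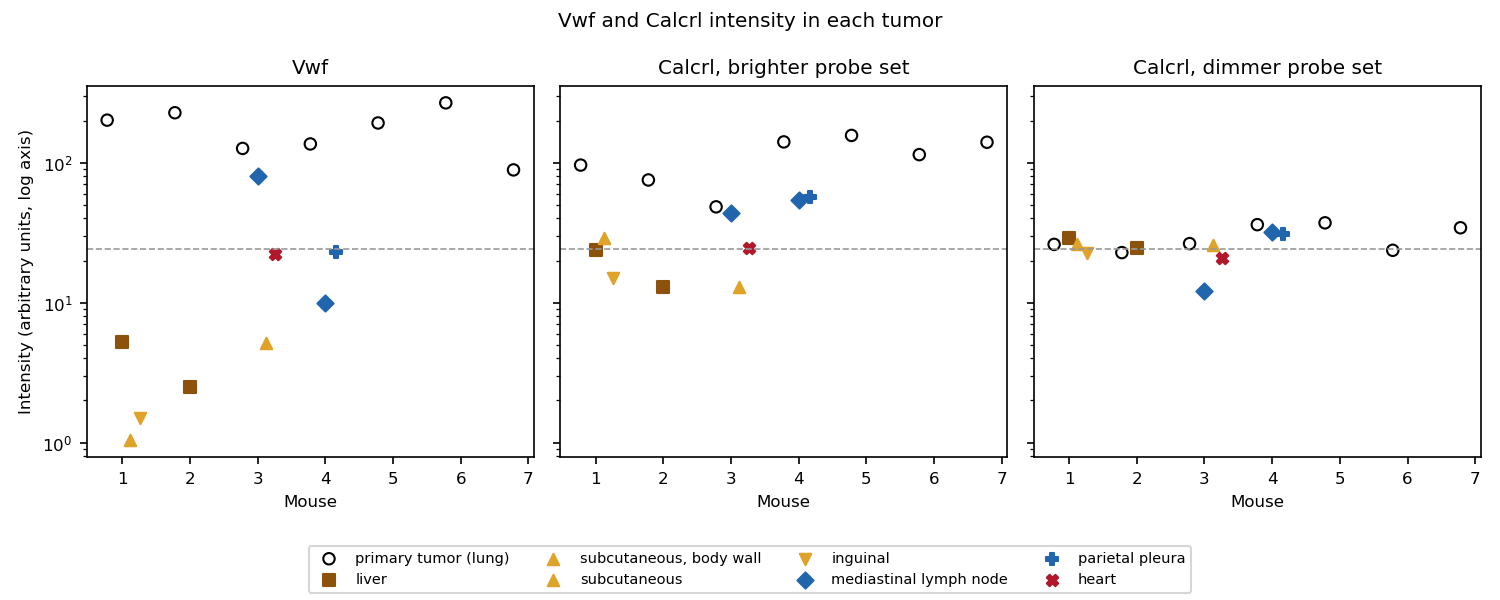
Intensity of Vwf and of the 2 Calcrl probe sets in each of the 16 tumors, on a log axis in arbitrary units, by mouse. Open circles are primary lung tumors, filled symbols are metastases by site, and the dashed line marks an intensity of 24.3, under which 25% of all values lie. All 7 Vwf circles lie above all 9 filled symbols, the brighter Calcrl probe set overlaps between 48.4 and 56.8, and the dimmer one overlaps widely.

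Calcrl was next in size and gave different results at its 2 probe sets. At 1425814_a_at the primary tumors of mice 1 to 4 had 96.2, 75.3, 48.4 and 141, and those of mice 5 to 7 had 157, 114 and 140. The metastases of mouse 1 had 14.9 (inguinal), 23.6 (liver) and 28.8 (subcutaneous or body wall), and the liver metastasis of mouse 2 had 12.9. Those of mouse 3 had 24.8 (heart), 43.6 (lymph node) and 12.9 (subcutaneous), and those of mouse 4 had 54.2 (lymph node) and 56.8 (pleura). Each metastasis was below its own primary tumor, but the pleura and lymph node of mouse 4 were above the primary tumor of mouse 3, so the groups overlapped. The log2 difference was −1.70 (SE 0.34, 95% interval −2.46 to −0.94, limma adjusted p = 0.0804). In the matched tumors without mouse 1 it was −1.53 (limma adjusted p = 0.387). With all 16 tumors Calcrl fell by 1.91 at this probe set (limma adjusted p = 0.00846), and without mouse 1 this was no longer past the threshold (limma adjusted p = 0.127). At 1418489_a_at the primary tumors had 22.8 to 37.2 and the metastases 12.2 to 32.0, with a log2 difference of −0.17 (95% interval −0.60 to 0.26, limma adjusted p = 0.803). Values at this probe set were dim in 5 of 16 tumors, and nothing in the files says which transcripts of Calcrl each probe set reads.

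Of the 14 probe sets of the 10 genes, 0 passed an adjusted p of 0.05 in the matched tumors, where limma called 0.34% of all probe sets lower and 0.0133% higher. At p under 0.01 limma called 2 of the 14 lower, Vwf and Calcrl 1425814_a_at, where 2.84% of all probe sets were called lower, and 0 of the 14 higher, where 1.14% were. The same 2 were lower in 9 of 9 metastases, as were 3.6% of all probe sets. With all 16 tumors limma called these 2 lower at an adjusted p of 0.05, where it called 0.955% of all probe sets lower, and 0 of the 14 higher, where it called 0.283%. Vwf was the only 1 of the 14 whose 7 primary tumors all lay above the 9 metastases, as did 0.318% of all probe sets. The other 12 probe sets passed in neither test.

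Tie1, an orphan receptor that acts beside Tek, was dim almost everywhere. Its 7 primary tumors had 24.3, 21.1, 15.5, 25.9, 23.9, 23.6 and 13.8 (mice 1 to 7), and its 9 metastases lay between 6.87 and 19.0 with a median of 11.0. Only the primary tumors of mice 1 and 4 were at or above the dim level, and the metastases overlapped the primary tumors of mice 3 and 7. Tie1 was below the own primary tumor in 8 of 9 metastases, the exception being the lymph node of mouse 3, and its log2 difference was −0.88 (95% interval −1.57 to −0.19, limma adjusted p = 0.304). This difference rests on dim values, since with values under 24.3 raised to 24.3 it was −0.02 (limma adjusted p = 0.629). Tek itself had 129 to 241 in the primary tumors and 106 to 186 in the metastases. Its log2 difference was −0.11 (95% interval −0.47 to 0.26, limma adjusted p = 0.859), and it was higher than in the own primary tumor in both metastases of mouse 4 and in no other.

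Kdr is the main signalling receptor for vascular endothelial growth factor, and its levels overlapped between primary tumors and metastases. The primary tumors of mice 1 to 7 had 344, 307, 256, 337, 443, 464 and 302. The metastases of mouse 1 had 277 (inguinal), 234 (liver) and 299 (subcutaneous or body wall), and the liver metastasis of mouse 2 had 214. Those of mouse 3 had 234 (heart), 340 (lymph node) and 249 (subcutaneous), and those of mouse 4 had 474 (lymph node) and 421 (pleura). Both liver metastases and the heart and subcutaneous metastases of mouse 3 lay below every primary tumor, and the lymph node of mouse 4 was the highest. The log2 difference of Kdr was −0.07 (95% interval −0.44 to 0.30, limma adjusted p = 0.911), with mouse means of −0.36, −0.52, 0.08 and 0.41 for mice 1 to 4.

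Flt1, which binds vascular endothelial growth factor with high affinity and also exists as a secreted decoy, was read by 3 probe sets. At 1451756_at the primary tumors had 163 to 292 and the metastases 133 to 215, at 1419300_at they had 91.0 to 339 and 81.9 to 293, and at 1454037_a_at they had 101 to 159 and 76.8 to 180. Their log2 differences were −0.11, −0.10 and 0.07, each with a 95% interval that holds 0 and an adjusted p in limma of at least 0.832. In the heart metastasis of mouse 3 the log2 ratio to its primary tumor was 0.63 at 1419300_at, −0.01 at 1451756_at and 0.18 at 1454037_a_at.

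Eng, the co-receptor for transforming growth factor beta and bone morphogenetic proteins, had 81.6, 81.8, 59.0 and 72.5 at 1417271_a_at in the primary tumors of mice 1 to 4, and 44.2, 53.3 and 42.8 in those of mice 5 to 7. Its metastases lay between 49.2 and 107, with the heart metastasis of mouse 3 highest. The 3 mice without a profiled metastasis lay below the other 4 at this probe set and also at 1432176_a_at (5.29 to 10.1 against 11.2 to 14.2), so that 2 of 14 probe sets showed this order, close to the 12.9% of all probe sets, and no member had these 3 mice above the other 4, as 7.12% of all probe sets did. Against the matched primary tumors the log2 difference was −0.25 (95% interval −0.68 to 0.19, limma adjusted p = 0.700) at 1417271_a_at. At 1432176_a_at, dim in 15 of 16 tumors, it was −0.16 (95% interval −0.76 to 0.44, limma adjusted p = 0.875).

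The molecules of the endothelial surface and its junctions were Pecam1, Esam and Emcn. Pecam1, an adhesion molecule shared with platelets and some leukocytes, had 79.9, 82.5, 50.5 and 72.9 in the matched primary tumors, 47.0, 72.4 and 38.1 in the others, and 32.7 to 72.7 in the metastases. The primary tumors of mice 3, 5, 6 and 7 were thus inside the range of the metastases. Its log2 difference was −0.50 (95% interval −1.05 to 0.05, limma adjusted p = 0.497). The mean log2 ratio of Pecam1 was −0.75 in mouse 1 and −1.34 in mouse 2, and 0.05 and −0.20 in mice 3 and 4. Esam, a tight junction adhesion molecule, had 177 to 402 in the primary tumors and 207 to 339 in the metastases, with a log2 difference of −0.13 (95% interval −0.50 to 0.24, limma adjusted p = 0.830). Emcn, a sialoprotein of capillary and venous endothelium, had 56.9 to 132 and 62.7 to 119, with a log2 difference of −0.04 (95% interval −0.60 to 0.52, limma adjusted p = 0.977). Emcn was higher than in the own primary tumor in 6 of 9 metastases, among them all of those of mice 3 and 4.

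**Figure D2:**
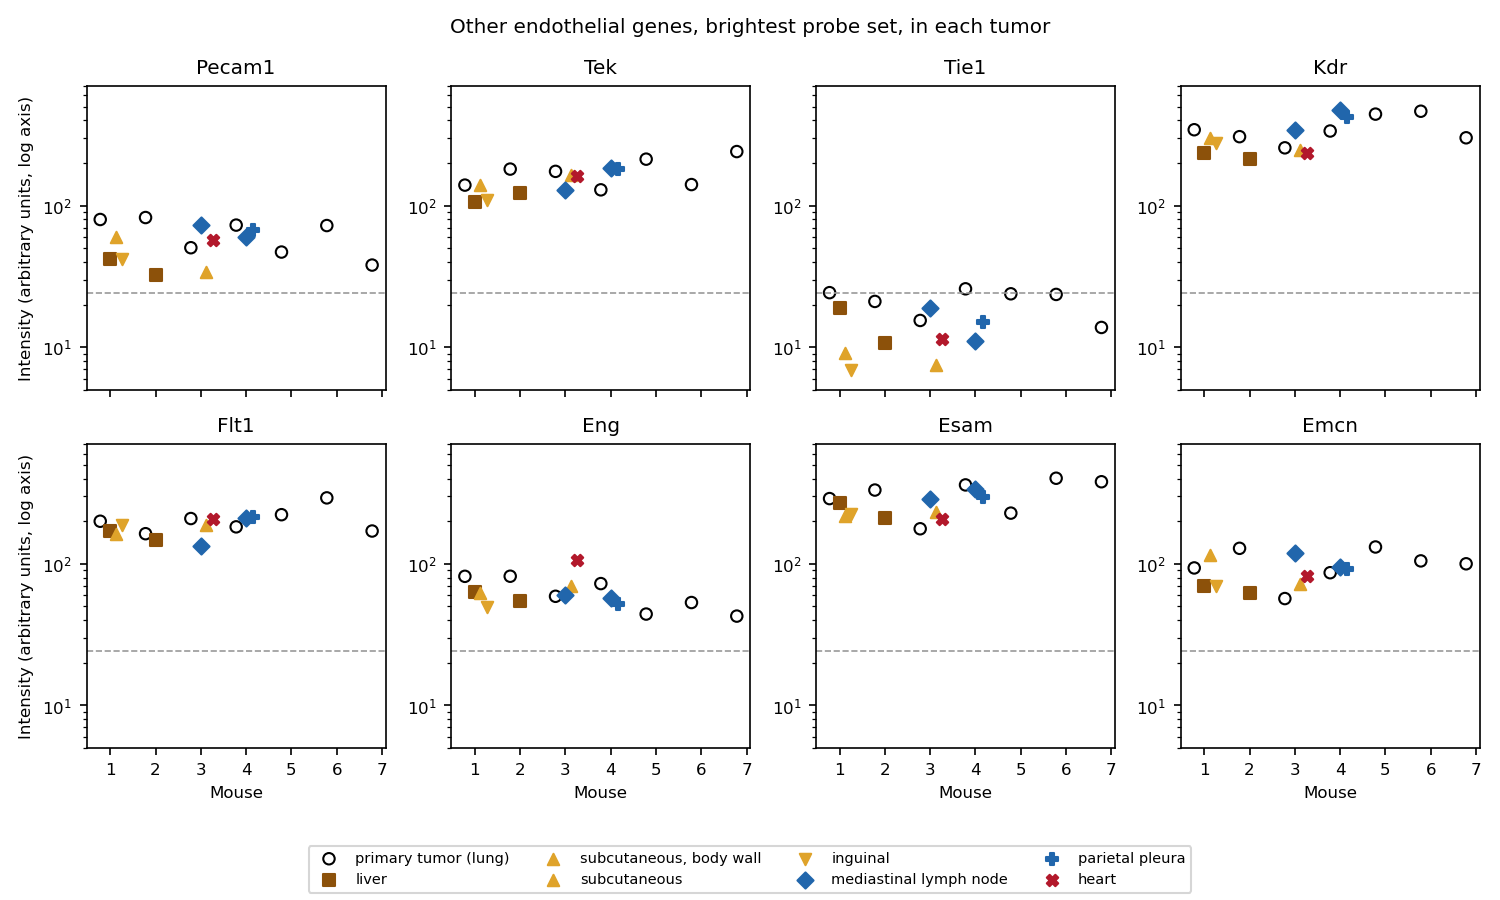
Intensity of the other 8 genes in each of the 16 tumors, at the probe set of highest mean for each gene, on a log axis in arbitrary units, by mouse. Open circles are primary lung tumors, filled symbols are metastases by site, and the dashed line marks an intensity of 24.3. In every panel the filled symbols overlap the circles, and in the panel of Tie1 nearly all symbols lie under the dashed line.

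Vwf was then set against the other 9 genes within each metastasis, each gene at its probe set of highest mean. In mouse 1 the log2 ratio of Vwf to the primary tumor was −7.06 in the inguinal, −5.26 in the liver and −7.60 in the subcutaneous or body wall metastasis, where the median of the other 9 genes was −0.43, −0.40 and −0.38. In the liver metastasis of mouse 2 it was −6.50 against a median of −0.67. In mouse 3 it was −2.50 in the heart, −0.65 in the lymph node and −4.62 in the subcutaneous tumor, against −0.01, 0.30 and −0.08. In mouse 4 it was −3.77 in the lymph node and −2.56 in the pleura, against −0.09 and −0.11. Vwf had the lowest ratio of the 10 genes in 8 of 9 metastases. The exception was the lymph node of mouse 3, where Flt1 had −0.65 too and lay just below Vwf.

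The difference between Vwf and the median of the other 9 had a median of −4.55 over the metastases and ranged from −7.22 in the subcutaneous or body wall tumor of mouse 1 to −0.95 in the lymph node of mouse 3. Vwf had the lower log2 ratio in 9 of 9 metastases against 11 of the 13 probe sets of the other genes, and in 8 of 9 against Flt1 1451756_at and Calcrl 1418489_a_at. The mean difference over the 4 mice ran from −2.96 against Calcrl 1425814_a_at to −4.82 against Flt1 1454037_a_at. Exact two-sided sign permutations over the 4 mice gave p = 0.125 for each of the 13, the smallest they can give. Vwf was set against the others with its low values already known, so these p-values add no support. Among the other 9 genes Calcrl had the lowest ratio in 8 of 9 metastases. With values under 24.3 raised to 24.3, the median difference between Vwf and the others was −2.40. Without mouse 1 it was −3.085.

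**Figure D3:**
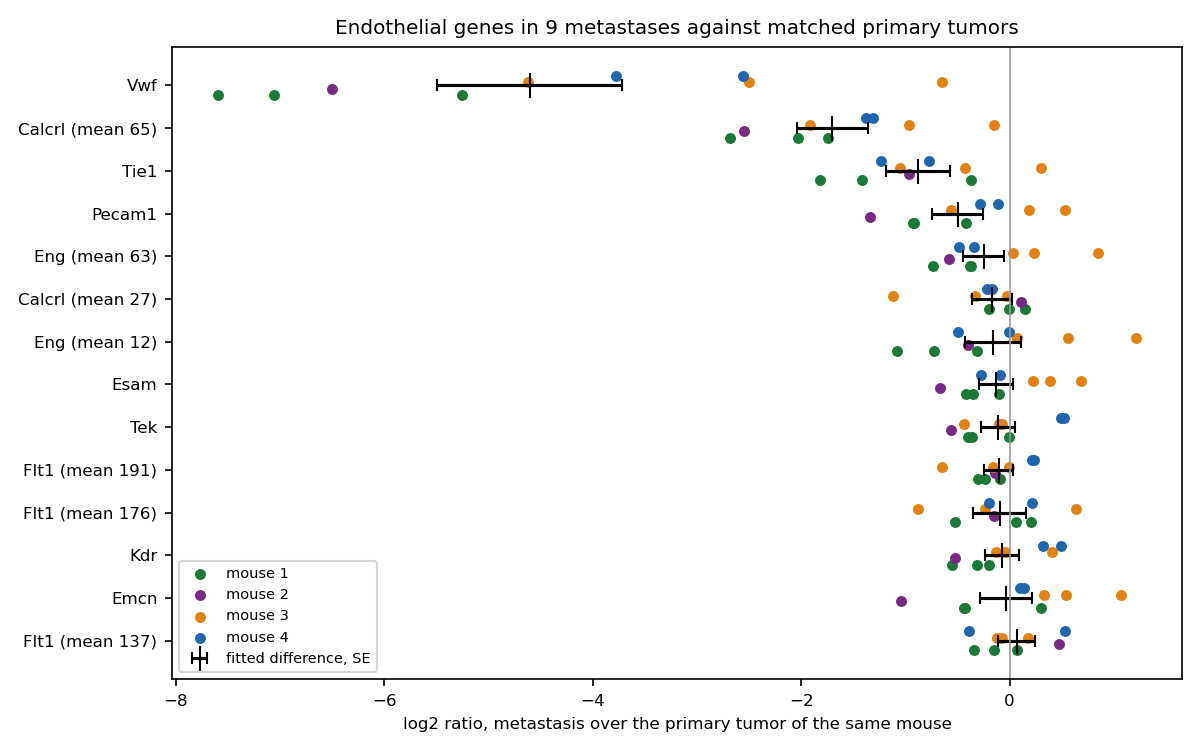
Log2 ratio of each of the 9 metastases to the primary tumor of its mouse for the 14 probe sets, colored by mouse. Crosses and bars are the fitted log2 difference with its SE in limma, and numbers in the row names are the mean intensity of that probe set over all 16 tumors where a gene has more than 1. Vwf runs from −7.60 to −0.65 and Calcrl at its brighter probe set from −2.69 to −0.15, while the other rows spread to both sides of 0.

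By site, the metastases inside the chest (lymph node, heart and pleura, 4 tumors) had more Vwf than the 5 others, with 9.95 to 80.7 against 1.04 to 5.26 and no overlap. Flt1 1419300_at did not overlap either, with 160 to 293 against 81.9 to 149. These were 2 of 14 probe sets, where 0.703% of all probe sets had the chest metastases above all others, and 0 of 14 had them below, where 1.21% did. The remaining 12 overlapped, among them Kdr with 234 to 474 against 214 to 299 and Pecam1 with 57.3 to 72.7 against 32.7 to 59.6. Mouse and site cannot be told apart here, since only mouse 3 had tumors of both kinds. Within mouse 3 both chest tumors were above the subcutaneous tumor for 8 of 14 probe sets, as for 18.9% of all probe sets. These were 2 probe sets of Flt1, the dim one of Eng, and Vwf, Calcrl 1425814_a_at, Pecam1, Tie1 and Emcn, but not Kdr, Tek or Esam. The grouping by site was chosen after the values had been seen and was given no test.

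Markers of other cell types also differed between these tumors, and their part in the Vwf values was not tested. The summed intensities of marker lists given below are set mostly by their brightest genes. Of 11 markers of alveolar type 2 cells 11 were lower in the metastases, as were 6423 of all 12393 genes. In limma 7 of the 11 were lower at p under 0.01, where 2.92% of all genes were. Their summed intensity was 21160 to 49450 in the matched primary tumors, 38990 to 56200 in the other primary tumors and 3669 to 32380 in the metastases. Of 6 club cell markers 6 were lower, 5 of them at p under 0.01 in limma. Scgb1a1 and Scgb3a1 passed the adjusted threshold at −5.63 and −2.21 (limma adjusted p = 2.56e-04 and 0.0264), where 0.355% of all genes were lower. The type 2 cell sum in the metastases was 10142 to 14925 in mouse 1, with Vwf at 1.04 to 5.26. It was 26485 in the metastasis of mouse 2, with Vwf at 2.52. Mouse 3 had 3669 (heart), 4407 (lymph node) and 5416 (subcutaneous), with Vwf at 22.4, 80.7 and 5.14. Mouse 4 had 30900 (lymph node) and 32382 (pleura), with Vwf at 9.95 and 23.1. The summed intensity of 9 hepatocyte markers was 5570 to 9816 in the 4 metastases of mice 1 and 2, all of them with Vwf of at most 5.26. They include the inguinal (7968) and the subcutaneous or body wall (6243) metastasis of mouse 1, which are not labelled as liver. The hepatocyte sum was 557 to 2145 in the other 5 metastases, with Vwf at 5.14 to 80.7, and 583 to 1576 in the primary tumors. No hepatocyte marker passed the test. Lymphocyte markers summed to 3322 and 3533 in the lymph node metastases of mice 3 and 4 and to 1198 in the pleura, against 382 to 465 in the other 6 metastases and 465 to 973 in the primary tumors. Most of this was Ighm, the immunoglobulin mu chain, with 2875, 3097 and 784 in these 3 tumors, while the other 7 genes together had 323 to 451 over all 16 tumors, with Cd4 dim in all 16 tumors and Cd3e in 15.

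Other endothelial genes were counted from lists of known markers, each gene at its probe set of highest mean. Of 48 further endothelial genes 42 were on the array, and 31 were lower and 10 higher with a median log2 difference of −0.18, against −0.01 over all 12393 genes and −0.19 over the 10 genes above. Of all 12393 genes 6423 were lower and 5937 higher. In limma 0 of the 42 passed the adjusted threshold, where 0.355% of all genes were lower. At p under 0.01 it called 1, or 2.38%, lower, where 2.92% of all genes were, and 0 higher, where 1.24% were. This was Rasip1, a regulator of vessel lumen formation, at −0.58 (SE 0.12, limma adjusted p = 0.0822) and lower in 9 of 9 metastases. Ptprb, the endothelial phosphatase that acts on Tek, was at −0.60 (limma adjusted p = 0.257), and Ramp2, the partner that makes Calcrl an adrenomedullin receptor, at −0.39 (adjusted p = 0.300). The junction protein Cldn5 was at −0.47 and the receptor Notch4 at −0.40, with a limma adjusted p of 0.396 and 0.421. Cdh5, the endothelial cadherin, was chosen after its value was seen, at −0.39 (limma adjusted p = 0.791). The summed intensity of the 42 genes was 6407 to 6838 in the matched primary tumors, 6058 to 7501 in the others and 4732 to 7950 in the metastases. Bright genes weigh most in this sum, such as Podxl, which had up to 2350 in a metastasis. Of the 42 genes 5 were dim in every metastasis, as were 1550 of all 12393 genes.

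Another list held 13 measured genes of Weibel-Palade bodies and large vessels, and not all of them belong to the granule. Of the 13, 4 were lower and 9 higher, with a median log2 difference of 0.05 and 0 at p under 0.01 in limma. Edn1, the endothelin-1 precursor, was at −0.63, the granule GTPase Rab3d at −0.22, the adhesion molecule Icam1 at −0.29, and Sele (E-selectin) at 0.25 in values that were dim in all 16 tumors. Selp, or P-selectin, is stored in the same granules as Vwf. Named after its value was seen, Selp had a mean of 65.6 ± 21.5 (SD, n = 4) in the matched primary tumors and 70.5 ± 19.0 (SD, n = 9) in the metastases, a log2 difference of 0.03 (95% interval −0.46 to 0.51, limma adjusted p = 0.980). Platelets also hold Vwf and Selp. Of 9 measured platelet and megakaryocyte genes 6 were lower and 3 higher with a median of −0.03, and their sum was 1431 to 3284 in the primary tumors and 1144 to 3877 in the metastases. Pf4 alone had up to 3006 in a metastasis.

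Among 19 measured partners and ligands of the 10 genes, 11 were lower and 8 higher with a median log2 difference of −0.10, and 0 had a p under 0.01 in limma. The lowest p belonged to Ramp1, the partner that makes Calcrl a receptor for calcitonin gene-related peptide, at −0.68 (limma adjusted p = 0.319). The transforming growth factor beta receptors Tgfbr2 and Tgfbr1, which act with Eng, were at −0.44 and −0.52, the co-receptor Nrp1 at −0.48 and the ligand Vegfb at 0.26. Of 5 lymphatic endothelial genes 4 were lower with a median of −0.36 and 0 at p under 0.01, and Pdpn, which alveolar type 1 cells also express, was at −0.90 (limma adjusted p = 0.283). The 7 genes of liver sinusoidal endothelium had a median of 0.03 and the 11 genes of mural cells, the muscle-like cells around vessels, a median of 0.23, with 0 at p under 0.01 in either list.

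**Figure D4:**
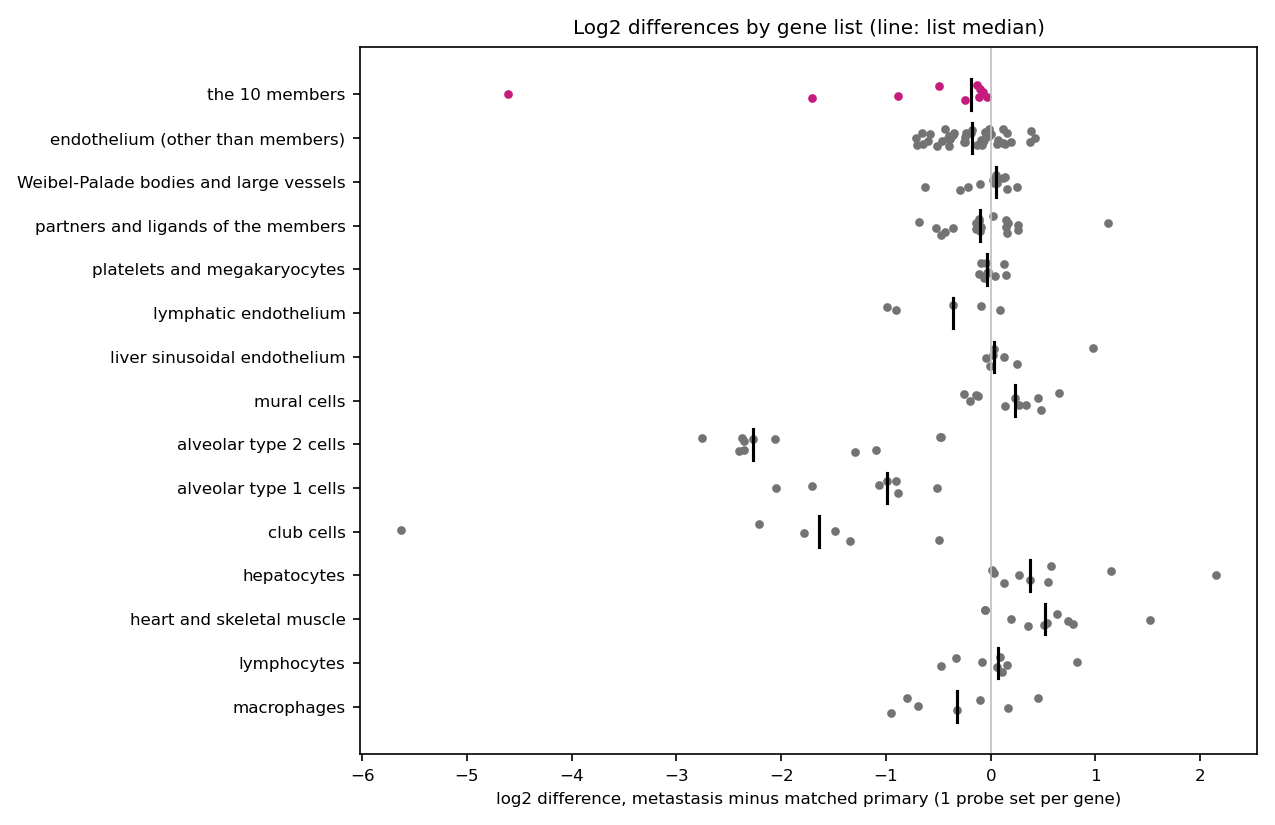
Log2 difference, metastasis minus matched primary tumor, for each gene of 15 lists at its probe set of highest mean. Each point is a gene and the vertical line is the median of the list. The 10 genes described here have a median of −0.19 with Vwf at −4.61 far to the left, the lymphatic list has a median of −0.36 and the other vascular lists between −0.18 and 0.23, and the alveolar and club cell lists lie to the left with medians from −2.27 to −0.99.

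The genes whose 9 log2 ratios lay nearest to those of Vwf, by root mean square distance over the 9 metastases, were Igha at 1.13, Esrp1 at 1.97, Fmo2 at 2.30, Scgb1a1 at 2.40 and Jchain at 2.45. None of the 5 is an endothelial marker. Igha and Jchain encode antibody chains of plasma cells, Esrp1 an epithelial splicing regulator, Fmo2 a lung monooxygenase and Scgb1a1 the main secretory protein of club cells. The log2 difference was −4.57 for Igha, −3.67 for Esrp1, −3.61 for Fmo2 and −2.56 for Jchain, and of these 4 Fmo2 passed the adjusted threshold (limma adjusted p = 0.00993). The 5 genes nearest to Kdr lay at distances from 0.13 for Ginm1 to 0.17 for Plcg2, with Gmcl1, Pkd2l2 and Acvr2a between them, and their log2 differences lay between −0.13 and −0.02. The distance grows with the size of the ratios, which were near 0 for Kdr, so the distances for Vwf and for Kdr are not comparable, and they were given no test.

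Promoter sequences are shown for Calcrl, which had the lower levels at 1 of its probe sets, and Kdr, which did not, so that the regions can be read beside their values. They run from 250 bases before to 50 bases after the RefSeq start in the build GRCm38.p6, written 5′ to 3′ on the strand of the gene, and RefSeq entries of this kind were matched for 7 of the 10 genes. Capitals mark GGAA or its complement TTCC, the core letters recognized by ETS factors, a family known for its role in endothelial genes. Calcrl lies at chr2:84425217-84425516 and Kdr at chr5:75978406-75978705, both on the minus strand.
Calcrl: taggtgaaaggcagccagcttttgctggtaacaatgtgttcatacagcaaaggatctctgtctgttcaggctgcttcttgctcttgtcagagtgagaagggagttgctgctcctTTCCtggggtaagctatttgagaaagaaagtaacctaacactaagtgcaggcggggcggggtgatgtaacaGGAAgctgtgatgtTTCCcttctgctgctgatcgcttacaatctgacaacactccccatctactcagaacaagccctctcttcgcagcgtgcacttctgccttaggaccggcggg
Kdr: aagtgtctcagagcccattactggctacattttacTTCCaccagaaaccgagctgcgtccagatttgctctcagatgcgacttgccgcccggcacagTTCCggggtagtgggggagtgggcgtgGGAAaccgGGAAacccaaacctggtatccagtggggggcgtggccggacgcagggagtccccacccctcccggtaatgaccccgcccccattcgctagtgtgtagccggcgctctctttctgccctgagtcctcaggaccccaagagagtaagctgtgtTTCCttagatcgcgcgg
The core occurs 3 times in the window of Calcrl and 5 times in that of Kdr, and 9 times in Tie1, 6 in Emcn, 4 in Eng, 4 in Flt1 and 2 in Tek. It is present in 96.0% of 32851 RefSeq promoters of the same length, with a median of 3. The longer form AGGAAG on either strand, which contains the core, is in the windows of Calcrl, Emcn, Eng, Flt1 and Tie1 but not in those of Kdr and Tek, and in 35.4% of all promoters.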

How the data were processed

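RNA from the unseparated tissue of 16 tumors was measured on 1 Affymetrix Mouse Expression 430A 2.0 array each. The authors normalized arrays by an invariant set in dChip and modelled perfect match minus mismatch signal, and the deposited intensity values are linear. Of 22690 rows, 64 controls were left out, and 22626 were fitted, of which 20380 carry 1 gene symbol, 691 several and 1555 none. Arrays correlated at 0.900 to 0.969 and none were identical. The number of arrays limits the precision.

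Intensities under 1 were raised to 1 (3.71% of values were at or under it) and log2 values taken. The 13 tumors of mice 1 to 4 were fitted by limma (version 3.58.1, R 4.3.3) with a term for each mouse, which leaves 8 residual degrees of freedom. The pairing comes from the labels, which name the mouse of each tumor, and deviations of a metastasis and its own primary tumor correlated at 0.0152 to 0.384. Among the primary tumors of mice 1 to 4, the own one gave the best correlation for 6 of 9 metastases. All 16 tumors were fitted with the mouse as a random block (consensus correlation 0.238). Single values were tested by exact two-sided sign permutation over 4 mouse means. The labels name no scan date, so no batch could be tested.

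The members, the marker lists and the tests were chosen with earlier results of these data known. Every member is given at every probe set, of each other list the genes past an adjusted p of 0.05 or otherwise at most 5 of smallest p, and the 5 genes nearest to Vwf and to Kdr with a mean intensity above 24.3. Of the 15 lists shown, those of alveolar type 1 cells (7 of 7 lower, median −0.99), macrophages (5 of 7 lower, −0.33) and heart and skeletal muscle (2 of 10 lower, 0.52) are reported here only. Cav1 and Pdpn stand in the alveolar type 1 list as well as in an endothelial one, and Gp1bb and Gp9 in 2 lists. Alternatives were other floors (5.54 and 24.3), quantile normalization, median centring, a filter on dim probe sets, no mouse block, 1 mean per mouse, the methods' t-test over the 9 log2 ratios, a variance trend with a robust prior, the mean of all probe sets of a gene, and each mouse or metastasis left out. The alternatives for all 16 tumors, the grouping by site and the test of Vwf minus each member were added after seeing the data.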

Additional observations from a re-analysis of the deposited data

Results flagged for a closer look

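Of 28 groups of values checked (14 probe sets, primary tumors and metastases apart), 3 held a tumor far from the nearest other, and chance alone gives about 1 in 20. Each of them was among the metastases and came from 1 tumor. Eng 1417271_a_at had an intensity of 106.6 in the heart metastasis of mouse 3, where the next metastasis had 69.6. Calcrl 1418489_a_at had 12.17 in the mediastinal lymph node metastasis of mouse 3, where the next had 21.0. Flt1 1454037_a_at had 76.76 in the mediastinal lymph node metastasis of mouse 4, where the next had 122. On the log2 scale, on which this was checked, the gap was 0.552, 0.563 and 0.543 of the range of the 9 metastases. None of these tumors was set apart at the other probe set or sets of the same gene.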

How the results depend on the processing

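The number of the 14 probe sets called lower at an adjusted p of 0.05 was 0 in the matched fit, 1 with the floor at 24.3, 1 with dim probe sets left out, and 2 with all 16 tumors, with the methods' t-test and with the variance trend. It was 0 to 2 with a mouse or metastasis left out, and 2 only without the lymph node of mouse 3. With dim probe sets left out (75.2% kept), Vwf, Tie1 and Eng 1432176_a_at were removed, and 1 probe set was called at p under 0.01. That count was 2 in the matched fit and 1 to 3 with a mouse or metastasis left out, and 1 without mouse 1. Vwf kept its direction under all 22 alternatives, at −5.40 to −2.59, with a limma adjusted p from 0.00419 to 0.376. It passed the threshold with the floor at 24.3 (−2.59), all 16 tumors (−4.57), the methods' t-test (−4.50), the variance trend (−4.61, adjusted p 0.0222) and, over a leave-one-out range of −5.40 to −3.81, without the lymph node of mouse 3 (−4.92, adjusted p = 0.0455). Without the replicate block Vwf was at −4.57 (limma adjusted p = 0.113), and no call at the adjusted threshold changed. With 1 mean ratio per mouse Vwf was at −4.72 (limma adjusted p = 0.338). At p under 0.01 the count was 3 in both fits, with Tie1 added, and also 3 with all 16 tumors and with the methods' t-test. With the floor at 24.3 Tie1 was at −0.02 (limma adjusted p = 0.629). With all 16 tumors the count of 2 at the adjusted threshold was 0 to 2 with a mouse left out, and 0 without mouse 1. The median of Vwf minus the others moved from −4.55 to −2.40 with the floor at 24.3. Calcrl 1425814_a_at stayed between −1.97 and −1.38 and passed under 5 alternatives. Members near 0 changed sign: Eng 1432176_a_at was 0.0195 with the floor at 24.3, 0.11 with all 16 tumors and −0.47 to 0.0504 with a mouse or metastasis left out. Emcn was 0.00869 after quantile normalization, 0.0640 by the methods' t-test and −0.30 to 0.20 with tumors left out. Flt1 1419300_at was 0.0018 without the block, and Kdr (−0.23 to 0.0367) and Flt1 1454037_a_at (−0.0269 to 0.16) changed sign with tumors left out. The cause was not tested. The fits compare 4 mice, and Vwf near an intensity of 1 has no measurable ratio below it.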
